A study of Mus musculus with 18 samples.

Results

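The 53 genes described here are the heat shock proteins, J-domain proteins and CCT chaperonin subunits on the array, out of 8251 genes with at least 1 named probe set. They are all genes whose platform symbol begins with Hsp, Dnaj or Cct followed by a digit, without Hspa5, Hsp90b1 and the proteoglycan gene Hspg2. No measured value entered that rule, but the set was chosen with earlier results of these data known. Where a gene had more than 1 probe set (16 of the 53 genes), the probe set with the highest mean signal over all arrays stands for it. Another 2 probe sets carry the symbols of both Dnajc19 and its pseudogene and were not used. Mean signals were below 105.6, the highest signal on any array among 19 control probe sets for bacterial and yeast genes, in all 6 groups for 5 of the 53 genes (Dnajb3, Dnajb5, Dnajb8, Hspa1a and Hspb1), and 48 genes exceeded it in at least 1 group.

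RNA came from 3T3-F442A adipocytes, fat cells formed in culture from a mouse preadipocyte line, and was measured on 18 Affymetrix MG_U74Av2 arrays. The labels name 6 groups: control and growth hormone (GH) cells at 30 min, at 4 h and at 48 h. Each group has 3 arrays, 1 from each of experiments 1, 2 and 3. The dose of GH, the differentiation protocol and the control's handling are not given in the sources used here. All groups are cultures of this line, so there are no genotypes or animals to separate. Nothing beyond the experiment numbers says that the cultures were separate, and the p-values below then rest on array-to-array spread, which may be technical. GH acts on adipocytes through a receptor coupled to JAK2 and STAT5, and Socs2, Cish and Socs3, feedback inhibitors of that signalling, served as a check of the labels.

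Chaperones bind proteins that are not yet folded or have come unfolded. HSP70 proteins do so in cycles that use ATP, DNAJ proteins deliver clients to HSP70 and start ATP hydrolysis, and HSP110 proteins release the ADP. HSP90 takes over clients such as kinases and steroid receptors, small heat shock proteins hold unfolded proteins, and the barrel-shaped CCT complex folds actin and tubulin. Heat shock factors raise many of these genes together when unfolded proteins accumulate, through promoter elements built from inverted repeats of GAA.

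For 3 of the 18 samples title and description disagree. In experiment 1, the array titled GH 30 min carries the description GH 48 h. In experiment 3, the array titled control 48 h carries that of control 4 h, and the array titled GH 4 h that of GH 30 min. Groups follow the titles here. The last of these arrays matters most here. Hsph1, Dnaja1, Hsp90aa1 and Dnajb1 were higher in the GH 4 h arrays of experiments 1 and 2 than in that of experiment 3. Cct3 was about level on these GH arrays (2890, 2967 and 2798). The experiment 3 control was the highest 4 h control for Cct3 (2633), Dnaja1 (1621), Hsph1 (1397) and Dnajb1 (466), but not for Hsp90aa1 (5293). Small differences in experiment 3 thus rest on the control as well as on the GH array. Socs2 signals on the GH 4 h arrays of experiments 1, 2 and 3 were 837, 738 and 1600, against 64.1, 71.0 and 92.4 on the GH 30 min arrays. Socs3 signals were 226, 409 and 505 after 4 h of GH and 4530, 6210 and 5032 after 30 min. By both genes the GH 4 h array of experiment 3 lay with the other GH 4 h arrays, as its title says, and its Cish signal of 821 lay near the 896 and 904 of the other two. For the members with the lowest p-values at 4 h, values without it follow those of the families.

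The arrays had medians between 148.7 and 182.4, and the adipocyte markers were measured on every array, with 0 of 13 below background and a summed signal of 114400 to 182600 by array. The 12 markers of preadipocytes and fibroblasts summed to 17520 to 61970 by array, and their values by experiment stand beside the 4 h results. In RNA from whole cultures, fewer cells with a transcript and less of it per cell cannot be told apart.

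**Figure D1:**
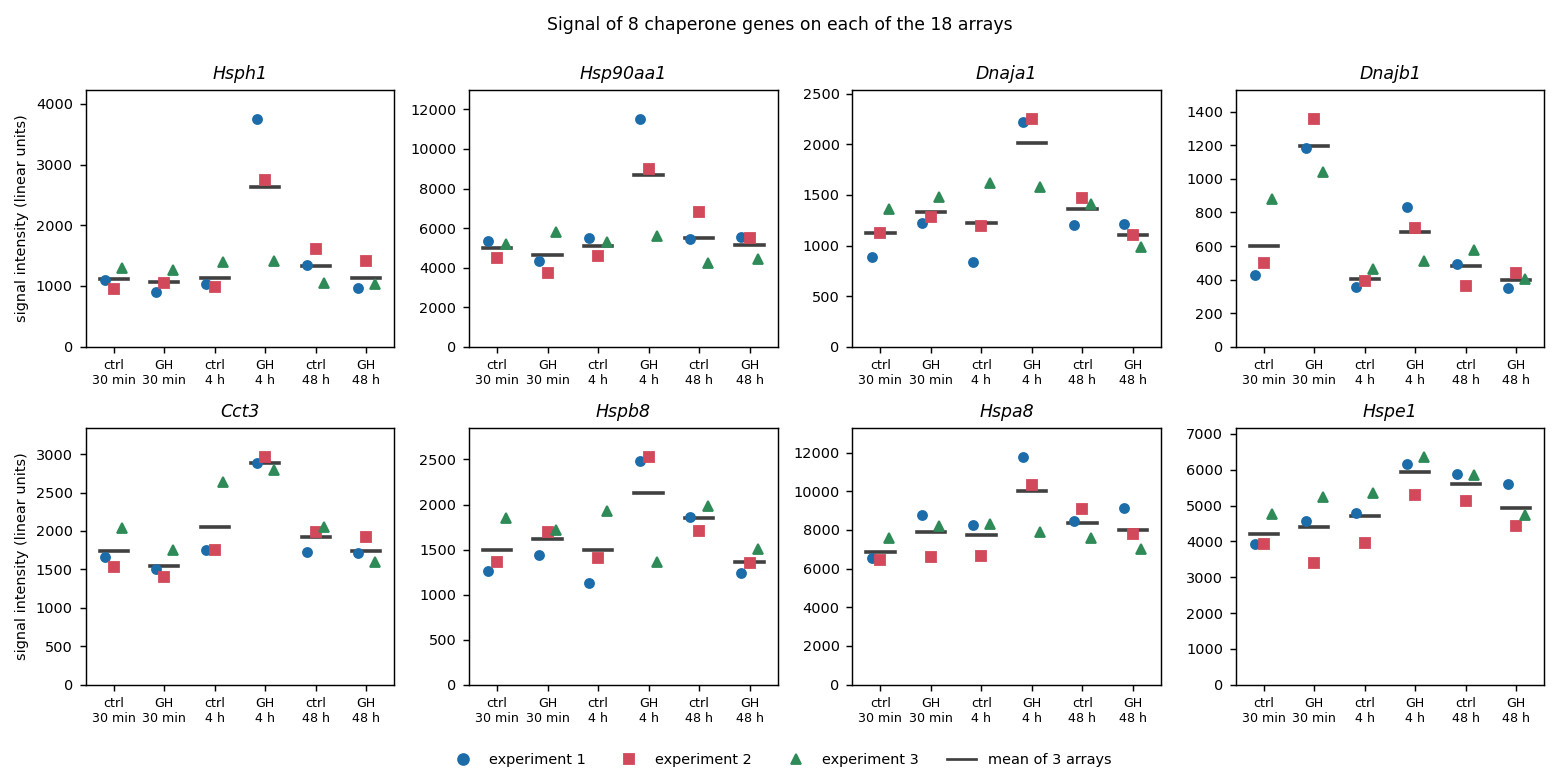
Signals (linear scale, arbitrary units) of 8 chaperone genes on each of the 18 arrays, by group, with 1 point per array, coloured by experiment, and a bar at the mean of 3 arrays. At 4 h the GH arrays of experiments 1 and 2 stand above the controls for Hsph1 (3756 and 2744), while the GH array of experiment 3 (1405) lies next to its own control (1397).

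After 4 h of GH, Hsph1, Dnaja1, Hsp90aa1, Dnajb1 and Cct3 had higher mean signals than in the 4 h controls, by 0.52 to 1.10 on the log2 scale, and none of these differences passed the test across the array. Changes here are differences of mean log2(signal + 25) between 3 GH and 3 control arrays. The test is limma over all 12422 probe sets with Benjamini-Hochberg adjustment at 0.05. It called 0 of the 53 genes at 4 h, against 0.121% of all probe sets, and with the experiment as a block it again called 0, against 0.362%. At an unadjusted p under 0.05, 6 of the 53 genes were higher with GH, against 3.64% of all probe sets, and 1 was lower, against 3.22%. Together these are 7 of the 53, against 6.86%. With the block, 10 of the 53 had such a p in either direction, against 10.3% of all probe sets. All 3 GH arrays lay above all controls for 6 of the 53 genes, against 6.26% of all probe sets, and below them for 0, against 5.13%. The mean was higher with GH for 33 of the 53 genes, against 53.3%. The median change of the 53 was 0.08, against 0.02 for all probe sets.

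Hsph1 encodes HSP110, the nucleotide exchange factor of HSP70. Its signals were 1036, 977 and 1397 in the 4 h controls of experiments 1, 2 and 3, and 3756, 2744 and 1405 with GH. All 3 GH arrays lay above all 3 controls, but the lowest GH array and the highest control, both of experiment 3, were almost level. The change was 1.10 ± 0.30 (SE, n = 3 per group; limma adjusted p = 0.300, adjusted p = 0.168 with the block). By experiment it was 1.83, 1.47 and 0.01. Without the GH 4 h array of experiment 3, the Hsph1 change was 1.50 ± 0.25 (limma adjusted p = 0.0173), as 1 of 38 probe sets called (0.306% of those tested). Without the whole of experiment 3 the change was 1.65 ± 0.24 (limma adjusted p = 0.0199), and without experiment 1 it was 0.74 (limma adjusted p = 1.0). Leaving out that GH array was chosen after the values were seen. Both omissions in experiment 3 take out the change near 0, so their p-values are descriptions and no support for a rise.

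Dnaja1 is a farnesylated J-domain partner of cytosolic HSP70. It had signals of 842, 1191 and 1621 in the controls and 2226, 2254 and 1574 with GH. The GH arrays of experiments 1 and 2 were above every control, and the GH array of experiment 3 was just below its own control, so the groups overlapped. The change was 0.75 ± 0.23 (SE; limma adjusted p = 0.381), and 1.38, 0.91 and -0.04 by experiment. Without experiment 3 it was 1.14 ± 0.21 (limma adjusted p = 0.0503).

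The promoters of these members are shown because Hsph1, Dnaja1 and Dnajb1 were all higher in experiments 1 and 2, and because some of them hold the inverted GAA repeats to which heat shock factor binds. The sequences are RefSeq's for build GRCm38.p6, the 250 bases before the transcription start, 5′ to 3′ on the gene's strand, with every match to GAANNTTC or TTCNNGAA in capitals. Hsph1 lies at chr5:149636337-149636586 (minus strand), Dnaja1 at chr4:40722218-40722467 (plus), Dnajb1 at chr8:83607925-83608174 (plus) and Hspe1, added as a gene with 3 overlapping matches and a small difference at 4 h, at chr1:55087898-55088147 (plus).
Hsph1: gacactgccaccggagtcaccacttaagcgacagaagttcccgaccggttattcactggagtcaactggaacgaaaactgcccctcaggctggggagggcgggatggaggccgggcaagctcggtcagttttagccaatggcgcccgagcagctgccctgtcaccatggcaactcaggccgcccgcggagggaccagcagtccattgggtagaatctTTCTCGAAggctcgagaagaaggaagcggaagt
Dnaja1: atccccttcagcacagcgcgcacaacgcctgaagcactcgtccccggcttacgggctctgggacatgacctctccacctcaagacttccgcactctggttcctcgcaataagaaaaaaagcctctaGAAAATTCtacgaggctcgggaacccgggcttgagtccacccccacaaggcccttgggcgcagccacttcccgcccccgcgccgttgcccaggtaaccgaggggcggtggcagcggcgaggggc
Dnajb1: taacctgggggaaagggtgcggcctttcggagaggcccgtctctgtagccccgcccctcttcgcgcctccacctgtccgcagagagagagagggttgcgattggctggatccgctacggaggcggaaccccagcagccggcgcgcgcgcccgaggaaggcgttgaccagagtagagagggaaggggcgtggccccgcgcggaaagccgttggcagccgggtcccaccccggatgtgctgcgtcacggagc
Hspe1: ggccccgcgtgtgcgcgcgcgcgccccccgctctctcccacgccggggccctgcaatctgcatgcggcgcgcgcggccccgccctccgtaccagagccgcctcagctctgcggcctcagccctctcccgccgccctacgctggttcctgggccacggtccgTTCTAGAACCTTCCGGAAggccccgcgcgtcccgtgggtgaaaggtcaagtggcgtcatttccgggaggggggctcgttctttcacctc
Hsph1 has TTCTCGAA at -33 to -26, counted from the start as base 1 with -1 before it, and the longer TTCTGGAAAGTTC, 3 repeats in alternating direction, at 37 to 49 after it. Dnaja1 has GAAAATTC at -124 to -117. Hspe1 has TTCTAGAA at -89 to -82, GAACCTTC at -84 to -77 and TTCCGGAA at -79 to -72, which overlap each other. In Hspb8 the match GAAGTTTC lies at 3 to 10 after the start. In the windows of Dnajb1 and Cct3 these letters did not occur.

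Both pairs read the same on either strand, and the search covered RefSeq's windows of 300 bases, 250 before and 50 after the start. Windows were found for 45 of the 53 genes. Cct4, Dnajc2, Dnajc5, Dnajc11, Hsp90aa1, Hspa8, Hspa9 and Hspb2 had none and were not searched. A gene with several windows counted if any of them matched. Hsph1, Dnaja1 and Dnajb1 had 2, 3 and 2 windows, and the sequences and positions above are of the first one listed. GAANNTTC occurred in 10 of the 45 (22.2%), against 9.04% of all 27025 genes with a window, and TTCNNGAA in 8 (17.8%), against 9.60%. The longer GAANNTTCNNGAA, on either strand and overlapping both pairs, occurred in 4 (8.89%), namely Dnajb6, Hspd1, Hspe1 and Hsph1, against 0.662% of all genes. Hspd1 and Hspe1 stand head to head and share their windows in part, so their matches are not separate. Of these 4 genes, changes at 4 h were 1.10 for Hsph1, 0.34 for Hspe1, 0.06 for Dnajb6 and -0.10 for Hspd1. A match describes letters and is not evidence of a bound factor.

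Hsp90aa1, the stress-inducible cytosolic HSP90, had signals of 5483, 4575 and 5293 in the 4 h controls and 11536, 8972 and 5576 with GH. The GH arrays were all above the controls, and in experiment 3 only slightly. The change was 0.70 ± 0.25 (SE; limma adjusted p = 0.518), and 1.07, 0.97 and 0.07 by experiment. The other HSP110 gene of similar pattern was Hspa4, at 2177, 1665 and 2210 in controls and 3163, 2456 and 2153 with GH. Its change of 0.35 ± 0.20 came with overlapping groups and values of 0.53, 0.55 and -0.04 by experiment. Hspa4l, another HSP110 protein, changed by -0.02.

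Among the 7 HSP70 genes, 4 had a higher and 3 a lower mean at 4 h, with a median change of 0.06 and a range of -0.18 to 0.36, and 0 had an unadjusted limma p under 0.05. Hspa8, the constitutive cytosolic HSC70, had signals of 8255, 6657 and 8281 in controls and 11789, 10344 and 7913 with GH. Its change of 0.36 ± 0.18 (SE; limma adjusted p = 0.777) was 0.51, 0.63 and -0.07 by experiment, again with experiment 3 apart. The stress-inducible pair Hspa1a and Hspa1b, the textbook targets of heat shock factor, gave -0.16 and 0.06. These paralogs are nearly identical in sequence, so their probe sets may not tell them apart, and Hspa1a was near background. Hspb1, another inducible gene, was also near background and had a change of 0.26. Mitochondrial Hspa9 had a change of -0.14, Hspa14, a ribosome-associated member, 0.16, and the germ-cell genes Hspa2 and Hspa1l 0.26 and -0.18.

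Of the 27 DNAJ genes, those of class B had a higher mean at 4 h in 8 of 10 cases (median 0.21), those of class C in 5 of 14 (median -0.02), and Dnaja2 and Dnaja3, the other class A genes, had changes of -0.06 and -0.17. Dnajb1, the HSP40 that works with HSC70 and HSP70, had signals of 358, 394 and 466 in the 4 h controls and 835, 706 and 508 with GH. Every GH array exceeded every control, by least in experiment 3. The change was 0.70 ± 0.25 (SE; limma adjusted p = 0.545), and 1.16, 0.80 and 0.12 by experiment. Dnajb11, an endoplasmic reticulum J protein, had signals of 457, 429 and 555 in controls and 667, 561 and 566 with GH, a change of 0.31 ± 0.17 with no overlap. Dnajb8 had a change of 0.59 (limma adjusted p = 0.715) at signals of 15 to 76, near background.

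Hspb8, a small heat shock protein that works with the co-chaperone Bag3, had signals of 1125, 1411 and 1933 in the 4 h controls and 2480, 2532 and 1362 with GH. In experiments 1 and 2 GH was higher by 1.12 and 0.83, and in experiment 3 lower by 0.50, with a change of -0.50. The mean change was 0.49 ± 0.24 (SE; limma adjusted p = 0.769). Without experiment 3, the Hspb8 change was 0.98 ± 0.17 (limma adjusted p = 0.0434). Hspb8 and Hsph1 were the 2 of 53 genes called there, among 106 probe sets in all (0.853%). Since experiment 3 holds the opposite sign, leaving it out favours this call, which is a description and no support for a rise. With an experiment or the GH 4 h array of experiment 3 left out, the Hspb8 change ranged from 0.17 to 0.98. Hspb2 had a change of -0.00. Hspb11, which despite its symbol is a subunit of the intraflagellar transport machinery, had signals of 519, 426 and 357 in controls and 63, 381 and 373 with GH. Its change of -0.91 ± 0.40 (limma adjusted p = 0.697) rested on the 1 low array of experiment 1, without which experiment it was -0.048.

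**Figure D2:**
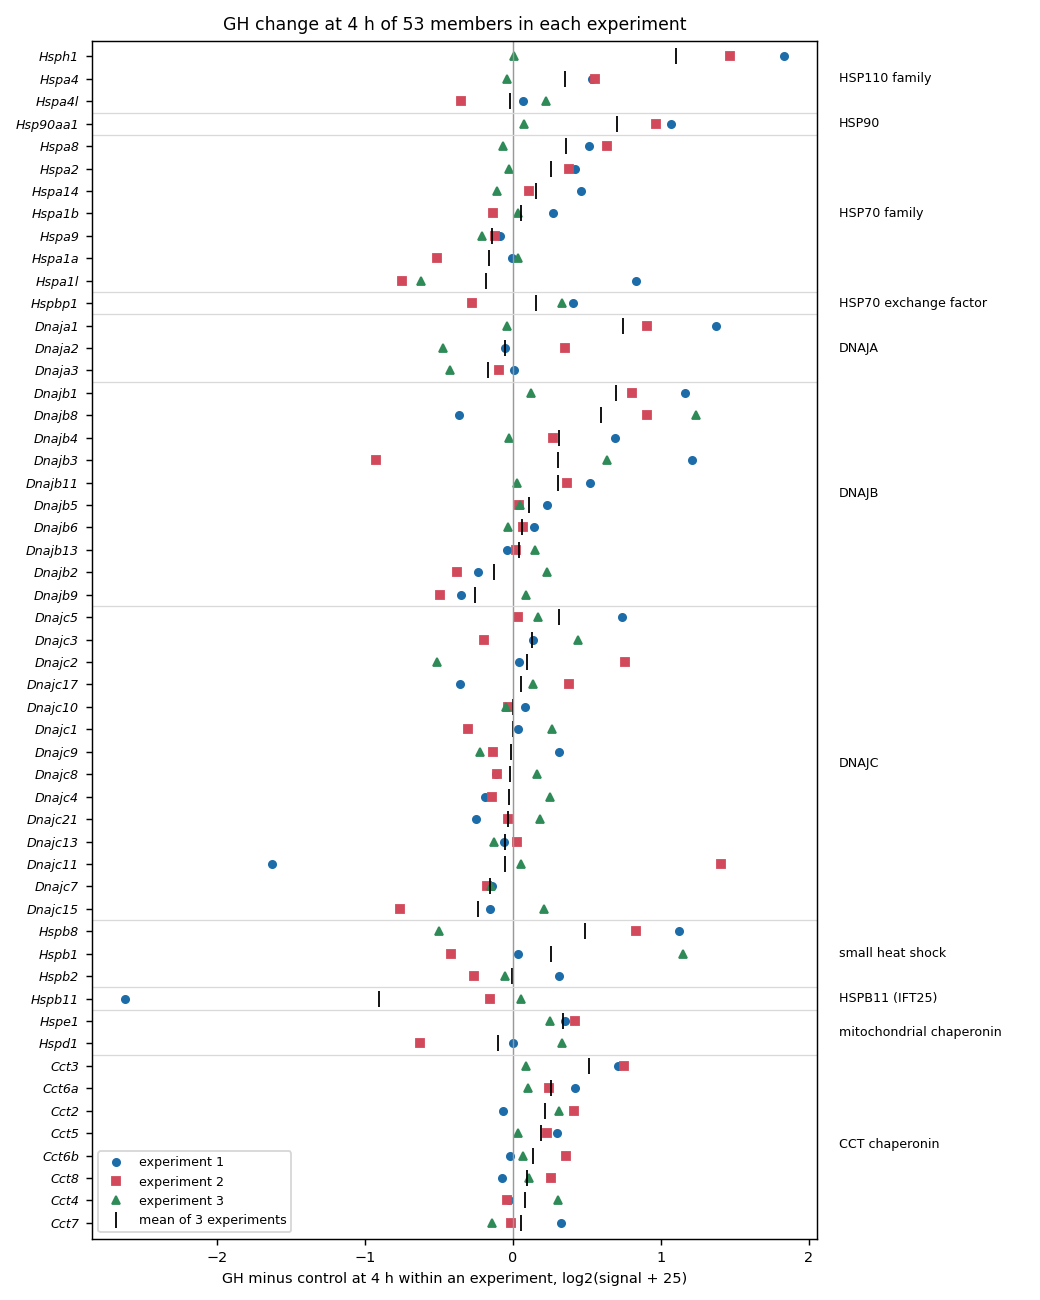
Change at 4 h (GH minus control, log2(signal + 25)) of each of the 53 genes, ordered by family, with a point for each of the 3 experiments and a tick at their mean. Hsph1 has the highest mean (1.10) and Hspb11 the lowest (-0.91), and for Hsph1, Dnaja1 and Hsp90aa1 the point of experiment 3 lies near 0.

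All 8 CCT genes had a higher mean with GH at 4 h, with a median change of 0.16, against a median of 0.02 for all probe sets. Cct3, the gamma subunit, had signals of 1756, 1750 and 2633 in controls and 2890, 2967 and 2798 with GH. The GH arrays were all above the controls, and the control of experiment 3 came close to them. The change was 0.52 ± 0.18 (SE; limma adjusted p = 0.496), and 0.71, 0.75 and 0.09 by experiment. The probe set of Cct3 is of a kind that can read related transcripts, and 2 further Cct3 probe sets gave 0.45 and 0.62. The other subunits had changes of 0.26 for Cct6a, 0.22 for Cct2, 0.19 for Cct5, 0.14 for Cct6b, 0.10 for Cct8, 0.08 for Cct4 and 0.06 for Cct7, each with an unadjusted limma p above 0.05. The signs of Cct4, Cct6b and Cct7 turned when an experiment or the GH 4 h array of experiment 3 was left out, to -0.030, -0.045 and -0.077.

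Of the mitochondrial chaperonin pair, Hspe1 (HSP10) had signals of 4803, 3953 and 5335 in controls and 6153, 5295 and 6364 with GH. It was higher in all 3 experiments (0.36, 0.42 and 0.25), experiment 3 included, yet the groups overlapped and the change was 0.34 ± 0.18 (SE; limma adjusted p = 0.798). Its partner Hspd1 (HSP60) had 7379, 12001 and 7193 in controls and 7378, 7747 and 9078 with GH. Its controls spread more than the groups differed, and the change was -0.10. A second Hspd1 probe set gave 0.39, so the probe sets of Hspd1 disagreed in sign, and the difference between Hspd1 and Hspe1 was not tested.

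Experiment 3 had fewer of the larger changes. The number of the 53 genes with a change above 0.5 at 4 h was 13 in experiment 1, 11 in experiment 2 and 3 in experiment 3, while the share of all 8251 named genes above it was 13.7%, 12.1% and 14.6%. A change above 0.5 in both experiments 1 and 2 was found for 8 of the 53, against 4.58% of all probe sets: Cct3, Dnaja1, Dnajb1, Hsp90aa1, Hspa4, Hspa8, Hspb8 and Hsph1. That count was chosen after the values were seen and is a description. The number of the 53 that were higher at all was 32, 28 and 34 in experiments 1, 2 and 3, against 48%, 48.1% and 55.4% of all named genes. Their median change was 0.083, 0.026 and 0.059, against -0.019, -0.014 and 0.048 for all named genes. Experiment 3 was not the lowest by either value alone. Its median lay nearest to that of all named genes. In experiment 3 the 8 genes above had changes between -0.50 and 0.12. They were picked by their values in experiments 1 and 2, so lower values in experiment 3 are partly built in by that choice. Over all 3 experiments 10 of the 53 were higher in each, against 16.8% of all probe sets, and 2 (Dnajc7 and Hspa9) were lower in each, against 14%. Without the GH 4 h array of experiment 3, 9 of the 53 were higher at an unadjusted limma p under 0.05, against 4% of all probe sets. This omission, too, was chosen after the values were seen. The count was 9 also without experiment 3 (5.71% of all probe sets) and without the 3 arrays of conflicting labels (4.09%), where Hsph1 alone was called (0.258%).

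Without the GH 4 h array of experiment 3, the changes at 4 h were 0.91 ± 0.24 for Dnaja1 (limma adjusted p = 0.192), 0.99 ± 0.23 for Hsp90aa1 (limma adjusted p = 0.115), 0.89 ± 0.27 for Dnajb1 (limma adjusted p = 0.273) and 0.54 ± 0.20 for Cct3 (limma adjusted p = 0.436). They were 0.78 ± 0.22 for Hspb8, 0.52 ± 0.19 for Hspa8, 0.47 ± 0.21 for Hspa4, 0.34 ± 0.19 for Dnajb11, 0.29 ± 0.21 for Hspe1, 0.50 ± 0.31 for Dnajb8 and -1.26 ± 0.42 for Hspb11, again with 0 of these 7 passing. Of the 12 genes with the lowest p-values at 4 h, 1, Hsph1, passed the test in that fit. The array was left out after the values were seen, so these results are descriptions.

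Marker levels also set experiment 3 apart at 4 h. The summed signal of the 12 preadipocyte and fibroblast markers was 29670, 27420 and 51830 in the 4 h controls of experiments 1, 2 and 3, and 24380, 26450 and 48440 with GH. Both arrays of experiment 3 were thus the highest of their groups, and each GH array was below its own control. The summed adipocyte markers were 159400, 146700 and 116400 in the controls and 146700, 143600 and 122400 with GH, with both arrays of experiment 3 the lowest. At 30 min the preadipocyte and fibroblast sums were likewise highest in experiment 3, at 45530 in the control and 47700 with GH, against 23660 to 28860 on the other 4 arrays. The part of these markers in the 4 h values was not tested.

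At 30 min Dnajb1 had the lowest p of the 53 genes. Its signals were 427, 500 and 882 in the controls and 1182, 1359 and 1043 with GH, so every GH array lay above every control, and the control of experiment 3 was the nearest. The change was 1.02 ± 0.25 (SE; limma adjusted p = 0.699, adjusted p = 0.496 with the block), and 1.42, 1.40 and 0.24 by experiment. None of the 53 genes passed the test at 30 min, against 0.0403% of all probe sets, or 0.0805% with the block. Without the array described as GH 48 h and the other 2 such arrays, the Dnajb1 change was 1.02 ± 0.28. At an unadjusted p under 0.05, 1 of the 53 was higher (0.845% of all probe sets) and 1 lower (1.6%), or 2 in either direction against 2.45%. With the block there were 4, against 3.61%. The other was Hspa4l, with 235, 187 and 167 in controls and 143, 108 and 134 with GH, a change of -0.52 ± 0.21 with no overlap. Dnajb9, an endoplasmic reticulum J protein of the unfolded protein response, had 2280, 3328 and 2853 in controls and 3497, 4104 and 3734 with GH, also with no overlap, and a change of 0.43 ± 0.22 (limma adjusted p = 1.0). Hspbp1, an exchange factor that binds HSP70, had a change of -0.42 and Dnajc11 of 0.70. Hsph1 and Dnaja1 had changes of -0.06 and 0.26 at this time, and 31 of the 53 genes had a higher mean, against 43% of all probe sets. All 3 GH arrays exceeded all controls for 2 of the 53 (2.32% of all probe sets) and lay below them for 1 (4.51%), while 9 were higher in each experiment (9.33%) and 8 lower (16.3%).

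At 48 h the genes with the lowest p-values were other ones. Dnajc9, a J protein that also escorts histones H3 and H4, had signals of 652, 646 and 616 in controls and 962, 1247 and 986 with GH. The groups did not overlap. The change was 0.71 ± 0.19 (SE; limma adjusted p = 0.172, adjusted p = 0.0513 with the block), a fold of 1.63 on this scale. Dnajc11, a J protein of the mitochondrial membranes, had 90, 86 and 63 in controls and 241, 239 and 237 with GH, a change of 1.34 ± 0.44 (limma adjusted p = 0.373). At 4 h the same probe set read 258 on 1 control array and 213 on 1 GH array. It read 202 on 1 GH array at 30 min, so single arrays outside the 48 h GH group reached or neared that group's values. The 48 h controls of Dnajc11 all lay below 105.6, the highest signal of the control probe sets for bacterial and yeast genes.

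Dnajb9 was on the other side at 48 h, with 3120, 3518 and 2315 in controls and 2103, 2371 and 1425 with GH. Each GH array was below its own control, while the groups overlapped through experiment 3. The change was -0.61 ± 0.22 (SE; limma adjusted p = 0.512). Dnajc17 had a change of -0.79 ± 0.31, which was -0.27 without experiment 3, and Hspa1a, near background, of 0.47 ± 0.22. Of the 4 h genes, Hsph1 was at -0.23, Dnaja1 at -0.30, Hsp90aa1 at -0.07, Dnajb1 at -0.23 and Cct3 at -0.14. Hspb8, at 1865, 1708 and 1981 in controls and 1240, 1346 and 1509 with GH, had a change of -0.43 ± 0.24, and all of its GH arrays were below all controls. The test called 0 of the 53 genes at 48 h, against 0.338% of all probe sets, or 1.27% with the block. At an unadjusted p under 0.05, 2 of the 53 were higher (3.64% of all probe sets) and 2 lower (2.86%), or 4 in either direction against 6.5%, and with the block 5, against 10.3%. A higher mean was found for 27, against 53.5%. All 3 GH arrays were above all controls for 4 (Dnajc9, Dnajc11, Hspa1a and Hspa1b, against 5.23%) and below for 2 (Cct5 and Hspb8, against 4.92%), while 7 were higher in each experiment (15.6%) and 11 lower (14%).

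**Figure D3:**
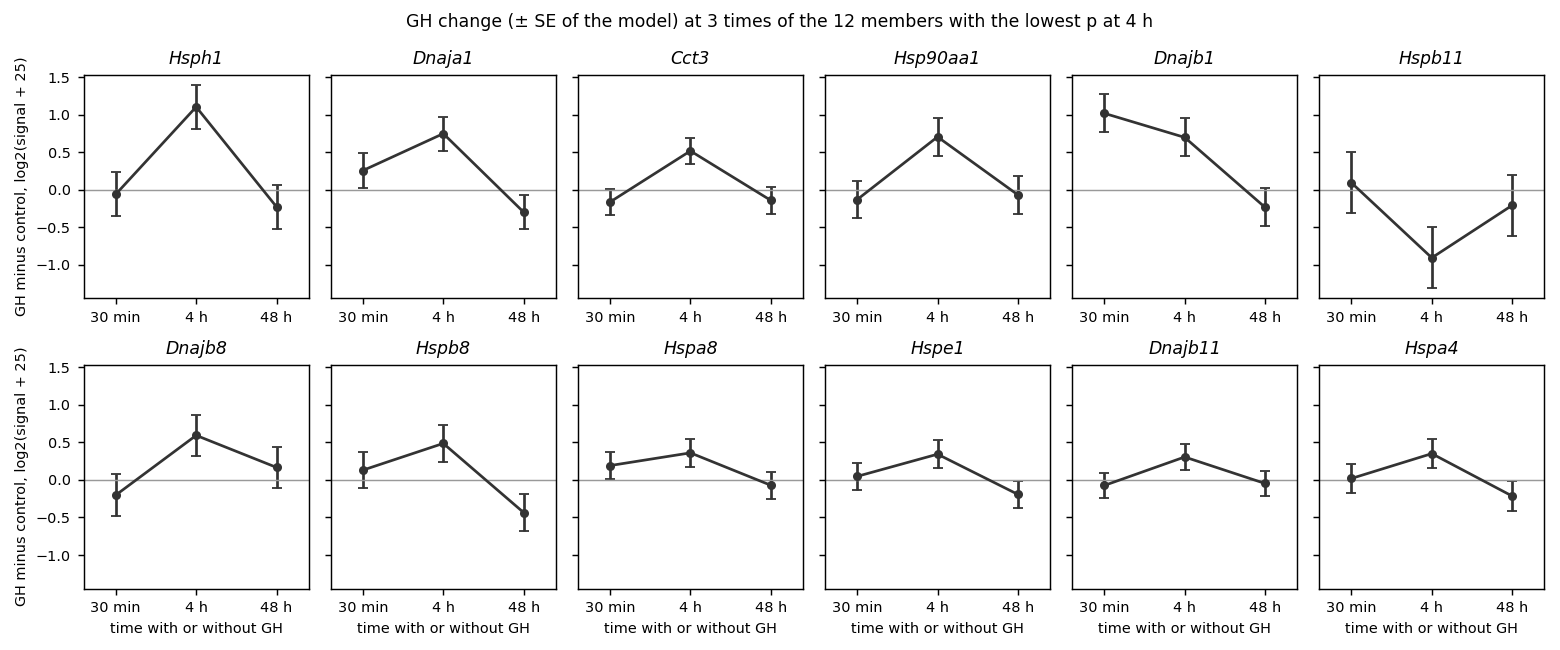
GH minus control difference (log2(signal + 25), mean and the model's standard error, 3 arrays per group) of the 12 genes with the lowest p at 4 h, at 30 min, 4 h and 48 h. Dnajb1 is highest at 30 min (1.02), and Hsph1 and Dnaja1 are highest at 4 h (1.10 and 0.75) and below 0 at 48 h (-0.23 and -0.30).

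The differences between times were tested as such, in the same fit. From 30 min to 4 h the GH effect on Hsph1 differed by 1.16 ± 0.42 (SE; limma adjusted p = 0.999), on Hsp90aa1 by 0.84, on Cct3 by 0.68, on Dnajb8 by 0.80 and on Dnajb9 by -0.69. From 4 h to 48 h it differed by -1.33 ± 0.42 for Hsph1 (limma adjusted p = 0.833), -1.05 ± 0.32 for Dnaja1 (limma adjusted p = 0.805), -0.92 for Hspb8, -0.66 for Cct3 and 0.72 for Dnajc9. Both comparisons share the 4 h arrays. Between 30 min and 48 h, a comparison added after the values were seen, it differed by -1.25 ± 0.36 for Dnajb1 (limma adjusted p = 0.506) and -1.04 ± 0.31 for Dnajb9 (limma adjusted p = 0.627). The test called 0 of the 53 genes in each of these 3 comparisons, against 0.0161%, 0.00805% and 0.0644% of all probe sets, or 0.0725%, 0% and 0.177% with the block. At an unadjusted p under 0.05 there were 4, 8 and 4 of the 53, against 4.42%, 4.92% and 5%.

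Between control groups, which received no GH, 0 of the 53 genes passed the test, against 0.0886% of all probe sets from 30 min to 4 h (0.0966% with the block) and 0% from 4 h to 48 h (0.00805%). From 30 min to 4 h the lowest p-values belonged to Dnajb1, with a change of -0.48, Dnajb13 (0.42), Hspb1 (-0.55), Dnajc11 (0.62) and Dnajc17 (-0.43), all with an unadjusted limma p above 0.05. From 4 h to 48 h Hspa1b had signals of 734, 955 and 891 and then 454, 595 and 588, with no overlap. This change was -0.63 ± 0.20 (SE; limma adjusted p = 1, adjusted p = 0.286 with the block). Dnajb6, a J protein that keeps polyglutamine proteins from aggregating, had 2426, 2857 and 2138 and then 1828, 1890 and 1763, also with no overlap and a change of -0.42 ± 0.17. For both genes the last 48 h value is of the experiment 3 array that is described as control 4 h. With an experiment left out, the change ranged from -0.66 to -0.62 for Hspa1b and from -0.50 to -0.34 for Dnajb6. Hspa2, Hspd1 and Dnajc3 had changes of 0.52, 0.50 and -0.56. At an unadjusted p under 0.05, 0 of the 53 differed from 30 min to 4 h, against 2.99% of all probe sets, and 2 from 4 h to 48 h, against 4.12%.

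Other probe sets of the same genes were compared where they had signal. For Hspb8 a second probe set gave 0.72 at 4 h, with 1.24, 1.46 and -0.55 by experiment, so it too was below 0 in experiment 3. The further Hspa4 probe sets gave 0.34, 0.26, 0.07 and -0.10, all below the 0.35 of the main one. The one at 0.26 had changes of -0.02, 0.16 and 0.64 by experiment, highest in experiment 3, unlike the main probe set. A second Hspd1 probe set gave 0.39 at 4 h, with 0.80, 0.28 and 0.08 by experiment, against -0.10 for its main one. Of Dnajb6 a second probe set gave -0.66, against 0.06, and a second Dnajb9 probe set gave -0.22 at 4 h, 0.22 at 30 min and -0.47 at 48 h, with the signs of the main one. A second Hsp90aa1 probe set was near background and gave -0.09.

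The partners of these chaperones were read from separate lists. Of 26 listed cytosolic co-chaperones and heat shock factors, 19 were measured, and at 4 h 14 of the 19 had a higher mean with GH and 0 passed the test, with a median of 0.20. By experiment that median was 0.46, 0.34 and -0.09, so here too experiment 3 differed. The lowest p-values belonged to Fkbp5, an HSP90 co-chaperone of steroid receptors, with a change of 0.65 ± 0.23 (limma adjusted p = 0.518), Hsf2, a heat shock factor near background, with 0.72, and Ttc1, which binds HSP70 and HSP90, with 0.42. At 48 h Fkbp5 rose by 1.35 ± 0.23 (SE; limma adjusted p = 0.0185, adjusted p = 0.0120 with the block), from 528 ± 127 to 1365 ± 185 (signal, SD, n = 3), and it was the 1 gene of the 19 to pass.

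The other chaperone and proteasome lists had medians between -0.05 and 0.16 at 4 h, against 0.08 for the 53 genes and 0.02 for all probe sets. Those of the reticulum chaperones and proteasome subunits lay above that of the 53 genes. The list of Tcp1, which completes CCT, and prefoldin, which hands it clients, also holds Pdcl3 and the tubulin cofactor genes Tbca, Tbcb and Tbce. This list had 5 of 10 genes higher and a median of -0.05, with Pfdn1 near background. The 9 mitochondrial partners had 4 higher and a median of -0.00. Of 14 endoplasmic reticulum chaperones, 9 were higher, with a median of 0.16, and without the block 0 passed. Fkbp11, a prolyl isomerase of secretory cells, had a change of 1.17 ± 0.29 (limma adjusted p = 0.277), with 0.94, 1.15 and 1.41 by experiment, and with the block it passed (limma adjusted p = 0.00635). Hspa5 and Hsp90b1, the reticulum's HSP70 and HSP90, had changes of 0.29 and 0.17. Among 31 proteasome subunits 25 had a higher mean at 4 h and 25 a lower mean at 48 h, with medians of 0.10 and -0.18 and 0 passing at either time. The medians of the marker lists at 4 h were -0.06 over 13 adipocyte and -0.12 over 12 preadipocyte and fibroblast genes. At 48 h all 12 of the latter had a lower mean, with a median of -0.65, and 0 of the 12 were called without the block and 2 with it, both lower. Their summed signal was 41740, 35380 and 55770 in the controls of experiments 1, 2 and 3, and 22290, 17520 and 61970 with GH. It was lower with GH in experiments 1 and 2 and higher in experiment 3, and the list's median change by experiment was -0.90, -1.11 and 0.13. The summed adipocyte markers were 134000 to 152400 in the 48 h controls and 114400 to 133200 with GH, with no overlap a median change of -0.35 over the 13 genes, and 1 of the 13 called lower with the block. The part of either list in the 48 h values above was not tested.

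**Figure D4:**
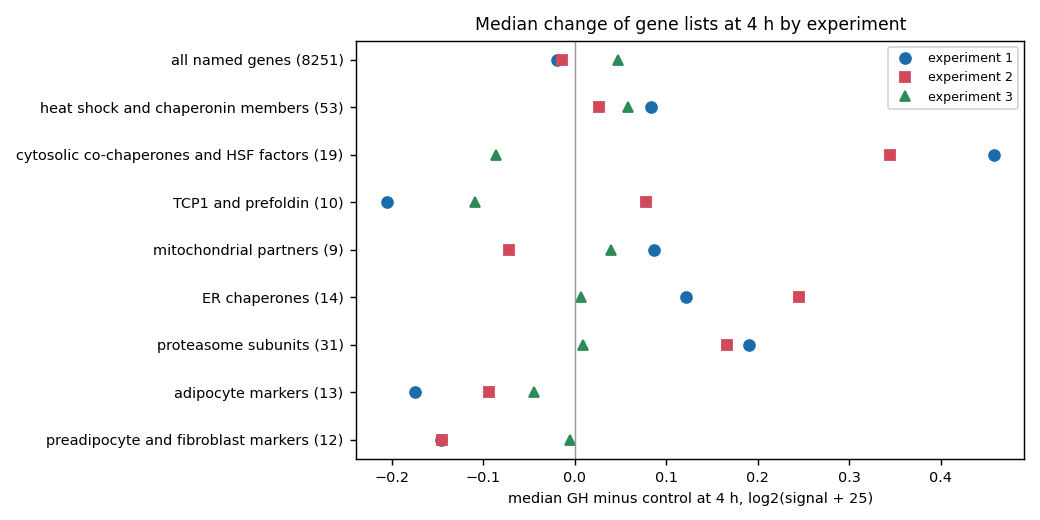
Median change at 4 h (GH minus control, log2(signal + 25)) of each gene list, of the 53 genes and of all 8251 named genes, with 1 point per experiment. The co-chaperone list has points at 0.46, 0.34 and -0.09 for experiments 1, 2 and 3, while the medians of all named genes lie between -0.02 and 0.05.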

How the data were processed

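The authors deposited linear signal intensities, 1 for each probe set on each array, and their summary method is not given in the sources used here. After trimming 2% at both ends, all arrays had a mean of 500.3, so the deposited intensities were already scaled. Of 12488 probe sets, 66 control probe sets were left out. Symbols came from the platform table, and all 53 gene identifiers matched RefSeq's table for GRCm38.p6.

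Log2(signal + 25) was fitted with limma 3.58.1 in R 4.3.3 over all 6 groups (12 residual degrees of freedom), with eBayes and Benjamini-Hochberg adjustment over 12422 probe sets. The alternative with the experiment as a block has 10. Same-experiment arrays deviated together (correlations of 0.151 to 0.457 over the 9 pairs, all above 0.1). At 48 h, however, the control of experiment 1 correlated more with the GH array of experiment 2 (0.213) than with its own (0.166). Experiment numbers were used as pairs for the differences by experiment and in the block alternative. The main fit, which gave the p-values without the block, is not paired. The number of arrays limits the precision.

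Alternatives were pseudocounts of 1 and 100, quantile normalization, a mean signal of at least 100, only the groups compared, the mean over a gene's probe sets, and experiments or arrays left out. The fit was also run on simulated data with known changes at 4 h. Those values were drawn independently for each array, without an effect of experiment, so the run does not cover the correlation of same-experiment arrays. Members, lists and tests were chosen with earlier results of these data known. Named were Hsph1, Dnaja1, the 12 members with the lowest p at 4 h and the 5 lowest in other comparisons, the 8 brightest, and every gene of the HSP and CCT classes. Other DNAJ names were chosen after their values were seen.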

Additional observations from a re-analysis of the deposited data

Results flagged for a closer look

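In 7 cases the GH effect on a gene had one sign in all 3 experiments at one time and the opposite sign in all 3 at another. The search covered every gene of the set and every pair of times. The share of all probe sets with such a switch was not computed, so the count is a description only. The differences were tested in limma, and 0 of the 7 passed after adjustment.

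For Hsph1 the effect was 1.10 at 4 h and -0.23 at 48 h, a difference of -1.33 (limma adjusted p = 0.833), although the 4 h effect in experiment 3 was only 0.01. For Cct3 it was -0.16 at 30 min, 0.52 at 4 h and -0.14 at 48 h, differences of 0.68 (limma adjusted p = 0.999) and -0.66 (limma adjusted p = 0.994). Cct5 went from 0.19 at 4 h to -0.22 at 48 h, a difference of -0.41, and Hspe1 from 0.34 to -0.19, a difference of -0.54 (limma adjusted p = 1.0 for both). Cct4 went from -0.18 at 30 min to 0.12 at 48 h, a difference of 0.30 (limma adjusted p = 0.999). For Dnajb9 the effect was 0.43 at 30 min and -0.61 at 48 h, a difference of -1.04 (limma adjusted p = 0.627, adjusted p = 0.184 with the block).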

How the results depend on the processing

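With the replicate block no member's call changed. The block called 10, 45 and 158 of all probe sets at 30 min, 4 h and 48 h, against 5, 15 and 42 without it. In the differences it called 9 (4 h against 30 min, 2 without it), 0 (48 h against 4 h, 1 without it) and 22 (48 h against 30 min, 8 without it). Between controls at 48 h and 4 h it called 1, against 0.

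Other settings moved the number of probe sets called. A pseudocount of 100 gave 8 at 30 min, 9 for 4 h against 30 min and 1 for controls at 48 h. A pseudocount of 1 gave 27 at 48 h, 0 for 48 h against 4 h, 5 for controls at 4 h against 30 min (11 without it) and 5 for 48 h against 30 min. Quantile normalization gave 7 for 4 h against 30 min, as did a mean signal of at least 100, which also gave 73 at 48 h and 1 for controls at 48 h. Fits of only the groups compared have fewer arrays, and gave 3, 0 and 0 at 30 min, 4 h and 48 h, 0 for 48 h against 4 h and 3 for controls at 4 h. Without the 3 arrays described as another group there were 3 at 30 min, 32 at 4 h, 4 for 48 h against 4 h and 2 for controls at 48 h. That setting called 1 member at 4 h, Hsph1 (1.50, limma adjusted p = 0.0257), and gave median member changes of 0.021 at 30 min and -0.16 for 48 h against 4 h. The mean over all probe sets of a gene gave a median member change of 0.0063 at 30 min, against 0.042.

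Leaving out 1 experiment, or the GH 4 h array of experiment 3 (an alternative chosen after seeing the data), gave 1 to 6 probe sets at 30 min, 0 to 106 at 4 h, 0 to 103 at 48 h, 0 to 9 for 4 h against 30 min, 0 to 18 for 48 h against 4 h, 1 to 7 and 0 to 3 between controls, and 0 to 14 for 48 h against 30 min. Members called at 4 h ranged from 0 to 2. Their median change ranged from 0.017 to 0.043 at 30 min, from 0.062 to 0.14 at 4 h and from -0.13 to -0.049 for 48 h against 4 h. Experiment 3 set the high end at 4 h and 48 h, and the cause was not tested.

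Among 79 values of named members and 827 alternatives, 802 kept sign and call, 4 passed the test newly and 21 turned sign. Hsph1 at 30 min turned to 0.057 without the 3 arrays and ranged from -0.16 to 0.051 with an experiment left out. At 4 h the ranges with an experiment or the GH array of experiment 3 left out were -0.030 to 0.14 for Cct4, -0.045 to 0.21 for Cct6b, -0.077 to 0.24 for Cct7, -0.31 to 0.016 for Hspa1a, -0.049 to 0.15 for Hspa1b, -0.68 to 0.11 for Hspa1l, -0.14 to 0.15 for Hspa4l, -0.19 to 0.59 for Hspb1, -0.16 to 0.13 for Hspb2 and -0.32 to 0.17 for Hspd1. Without the 3 arrays, Cct6b was -0.045, Hspa4l 0.044 and Hspb1 -0.14. Between controls Hsph1 ranged from -0.023 to 0.070 (30 min to 4 h) and from -0.016 to 0.54 (4 h to 48 h).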

Other observations

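Hspa1b and Dnajb6 were lower in every 48 h control than in every 4 h control, and on the GH arrays Hspa1b read 891, 868 and 914 at 4 h and 640, 674 and 647 at 48 h. Dnajb6 read 2685, 2992 and 2090 with GH at 4 h and 1872, 2020 and 1758 at 48 h. The step from 4 h to 48 h thus had the same direction with and without GH for both genes, without overlap in either case. The difference on the GH arrays was not tested.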
